A study of Mus musculus with 10 samples.

Results

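The liver genes of hepcidin production and of iron uptake, sensing and storage were compared between mice that carry human APOE4 and mice that carry human APOE3. The set was defined by name as 10 genes, Hamp, Hamp2, Tfrc, Tfr2, Trf, Fth1, Ftl1, Slc11a2, Hfe and Bmp6. It takes every probe set of the array whose annotation gives exactly 1 gene symbol equal to one of these names, whatever its level. This gave 21 probe sets for 8 of the 10 genes, out of 18194 genes named in the same way. Ftl1 and Trf are on the array only through probe sets that carry several symbols (3 and 1 probe sets), so no value was read for them. A probe set is a group of short oligonucleotides read together as 1 value for a transcript.

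The animals were 5 homozygous APOE4 mice (B6.129P2-Apoetm3(APOE*4)Mae N8) and 5 homozygous APOE3 mice (B6.129P2-Apoetm2(APOE*3)Mae N8), all female, on a C57BL/6 background and 3 months old. In both groups the mouse Apoe gene is replaced by the human one under the murine Apoe promoter, so no group has mouse Apoe. Both ate a high-fat diet with 41% of its energy from milk fat and with 2 g/kg cholesterol. It lasted 6 weeks by one label and 2 months by another. Each array held the liver RNA of 1 animal, with values on the log2 scale.

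Hepcidin is a small hormone made mainly by hepatocytes. It binds the iron exporter ferroportin and causes its removal from the cell surface, so that a high hepcidin level keeps iron inside macrophages and enterocytes. Its transcription is raised by BMP6 and BMP2 from liver endothelial cells through SMAD factors, with HFE and transferrin receptor 2 acting in iron sensing, and by interleukin 6 through STAT3. Ferritin stores iron in the cell and transferrin receptor 1 brings it in. Iron regulatory proteins adjust both after transcription, through translation for ferritin and mRNA stability for the receptor.

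The mouse has 2 hepcidin genes, Hamp and Hamp2, which lie beside each other on chromosome 7 with 0 protein-coding genes between them, and 347 protein-coding genes from Apoe. The 250 bases before the start of each gene are shown because the pair differs in a site through which BMP signals are known to act on human hepcidin. Of the 10 genes, 8 had such windows in the RefSeq table (GRCm38.p6), and these lie on the minus strand at chr7:30944030-30944279 for Hamp and chr7:30924182-30924431 for Hamp2. Capitals mark the BMP response element core GGCGCC and the STAT3-type site TTCTTGGAA, which do not overlap each other.
Hamp: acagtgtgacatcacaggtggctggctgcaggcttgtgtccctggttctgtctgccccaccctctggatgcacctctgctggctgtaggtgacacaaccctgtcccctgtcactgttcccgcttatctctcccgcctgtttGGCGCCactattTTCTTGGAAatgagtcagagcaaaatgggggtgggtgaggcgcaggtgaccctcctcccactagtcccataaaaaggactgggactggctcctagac
Hamp2: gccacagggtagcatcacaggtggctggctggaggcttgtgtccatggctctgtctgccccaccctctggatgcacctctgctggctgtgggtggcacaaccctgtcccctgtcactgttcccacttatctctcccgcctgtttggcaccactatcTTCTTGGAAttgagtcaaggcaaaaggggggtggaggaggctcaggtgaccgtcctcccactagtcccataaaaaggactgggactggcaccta

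The windows were identical at 227 of 247 aligned bases (91.9%). Both strands were searched. GGCGCC occurred once in the Hamp window, from position 142, and 0 times in the Hamp2 window, where the alignment gave the single substitution G145A, counted from 1 at the 5′ end of the Hamp window. TTCTTGGAA occurred once in each, with no substitution inside it. Among 32536 different RefSeq windows of 250 bases, 9.65% held GGCGCC and 0.366% held TTCTTGGAA. A match describes the letters of the reference sequence and shows neither binding nor use of the site.

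No tested iron gene passed the test between APOE4 and APOE3 livers. Of the 21 probe sets, 11 from 7 genes averaged 4 log2 or more across the 10 arrays and were tested with limma, with p-values adjusted by Benjamini-Hochberg over all 14732 tested probe sets. At an adjusted p under 0.05, 0 of 11 passed, against 0.0815% of all tested probe sets (5 higher and 7 lower in APOE4). Without adjustment 1 of 11, a Tfr2 probe set, had a p under 0.05, against 8.00% of all tested probe sets (5.53% higher in APOE4), so the members stood near the background. In 0 of 11 were the genotypes free of overlap, which held for 2.02% of all tested probe sets. The differences, APOE4 minus APOE3, were above 0 in 5 and below 0 in 6, with a median of -0.08 log2 against 0.05 log2 over all tested probe sets.

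The deposited values were already normalized between arrays, so the near-equal array medians, 2.61 to 2.67 log2, are no separate check of scale. A typical tested probe set varied between animals of one genotype with an SD of 0.231 log2 (median). Mouse Apoe, by its 1 probe set, stayed between 0.960 and 1.19 log2 on all 10 arrays. The hepatocyte markers that define the tissue were present. The 9 tested of 10 averaged 13.1 to 13.4 log2 in APOE4 mice and 13.0 to 13.4 in APOE3 mice. In bulk liver RNA, fewer cells of a type and less RNA per cell cannot be told apart.

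**Figure D1:**
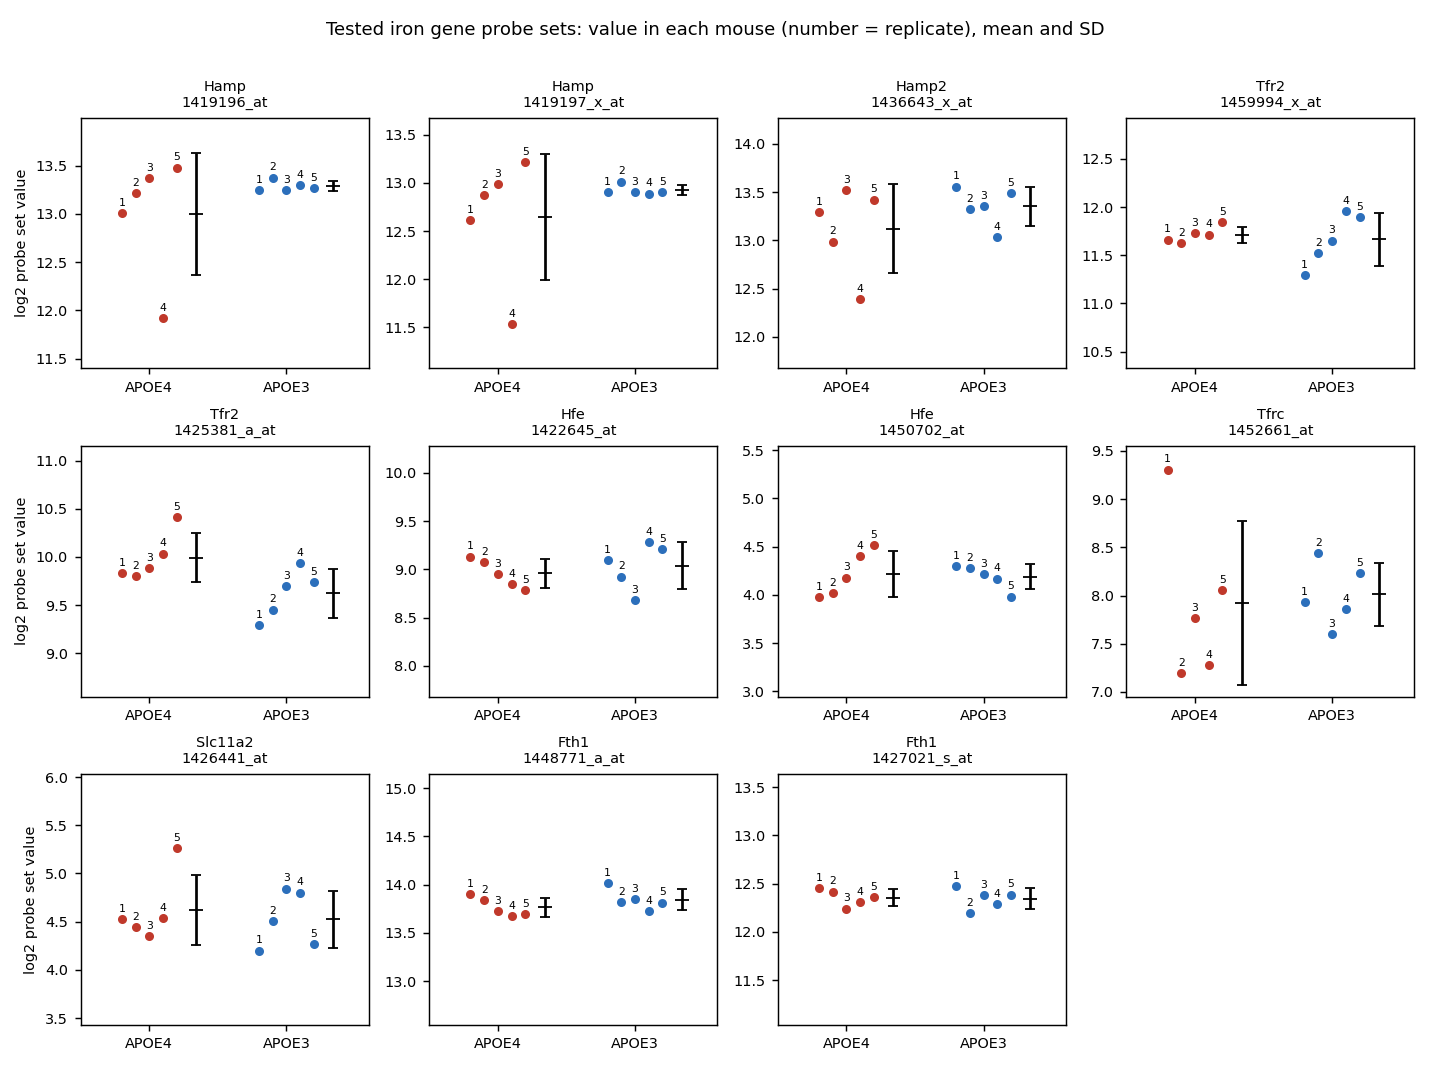
Log2 value of each tested iron gene probe set in every mouse, 5 APOE4 mice (red, left) and 5 APOE3 mice (blue, right), with the replicate number at each point and the mean with its SD as a bar. Every panel spans the same height in log2 units. The genotypes overlap in all 11 panels, APOE4 replicate 4 is lowest in the 3 hepcidin panels, and APOE4 replicate 1 is highest for Tfrc.

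Hamp, which encodes hepcidin, was abundant in every liver, and its spread lay almost wholly in the APOE4 group. By probe set 1419196_at it was at 13.01, 13.22, 13.37, 11.92 and 13.48 log2 in APOE4 replicates 1 to 5, against 13.25, 13.38, 13.25, 13.30 and 13.27 log2 in APOE3 replicates 1 to 5. The APOE3 mice lay within a narrow band, and 1 APOE4 mouse, replicate 4, lay below all other animals. The mean was 13.00 ± 0.63 log2 in APOE4 and 13.29 ± 0.05 log2 in APOE3 (SD, n = 5 each), a difference of -0.29 log2 (SE 0.25, 95% interval -0.84 to 0.26, adjusted p = 0.785 in limma). As a ratio of APOE4 over APOE3 the interval runs from 0.559 to 1.20. Without APOE4 replicate 4 the difference was -0.02 log2, so that mouse sets its size.

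The remaining Hamp probe set, 1419197_x_at, has the suffix x, which marks oligonucleotides that can bind transcripts of other genes, so it is no sure second reading of Hamp. It was at 12.62, 12.87, 12.99, 11.53 and 13.22 log2 in the APOE4 mice, against 12.91, 13.01, 12.90, 12.89 and 12.90 log2 in the APOE3 mice. The difference was -0.28 log2 (SE 0.26, adjusted p = 0.803 in limma) and 0.0008 log2 without APOE4 replicate 4. That mouse lay 1.09 log2 (2.13-fold) under the next lowest animal by 1419196_at and 1.08 log2 (2.12-fold) by 1419197_x_at.

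For Hamp2, whose product is not known to act on iron in the mouse as hepcidin does, the probe sets disagreed. By 1436643_x_at it was at 13.29, 12.99, 13.52, 12.39 and 13.42 log2 in the APOE4 mice, against 13.56, 13.33, 13.36, 13.04 and 13.49 log2 in the APOE3 mice. APOE4 replicate 4 was again lowest, by 0.60 log2, and the groups overlapped (difference -0.23, SE 0.20, adjusted p = 0.790 in limma, and -0.05 without that mouse). By 1456289_at Hamp2 stayed between 2.12 and 2.28 log2 in APOE4 and between 1.97 and 2.23 log2 in APOE3, a background level. The brighter probe set has the suffix x too, and the transcripts of Hamp and Hamp2 were not compared here. Whether the signal of either x probe set comes from Hamp, from Hamp2 or from both was not tested, and both values are uncertain for that reason.

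Hepatocyte markers averaged 13.2 log2 in APOE4 replicate 4, inside the range of the other APOE4 mice. The difference between the 3′ and 5′ control probe sets of Actb, a sign of RNA integrity, was 2.97 log2 in this mouse, the highest of 2.46 to 2.97 in APOE4, with 2.22 to 3.20 in APOE3. The part of RNA integrity in its low hepcidin value was not tested.

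Among the sensors, Tfr2 gave the smallest p of the set. Tfr2 encodes transferrin receptor 2, a hepatocyte protein that senses transferrin loaded with iron. By 1425381_a_at it was at 9.83, 9.80, 9.88, 10.03 and 10.41 log2 in the APOE4 mice, against 9.29, 9.45, 9.70, 9.93 and 9.74 log2 in the APOE3 mice. The 5 APOE4 values tended to lie above, but the groups overlapped, since APOE3 replicate 4 exceeded 3 of the APOE4 mice. The difference was 0.37 log2 (SE 0.15, 95% interval 0.03 to 0.70, unadjusted p = 0.034) and failed the adjusted threshold (adjusted p = 0.588 in limma). Left out in turn, single animals moved it between 0.26 and 0.45 log2.

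The remaining Tfr2 probe set gave a smaller difference, and its suffix x makes it no sure second reading of Tfr2. By 1459994_x_at Tfr2 was at 11.66, 11.62, 11.73, 11.71 and 11.84 log2 in the APOE4 mice, against 11.30, 11.52, 11.65, 11.96 and 11.90 log2 in the APOE3 mice. The APOE4 mice fell inside the APOE3 range, with a difference of 0.05 log2 (SE 0.13, 95% interval -0.23 to 0.33, adjusted p = 0.940 in limma), which turned to -0.01 with arrays centred on their medians. The pair of probe sets thus gave 0.37 and 0.05 log2, and the difference between them was not tested.

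Hfe, the gene of the MHC class I-like protein that is altered in hereditary haemochromatosis, overlapped between the genotypes by both of its probe sets. By 1422645_at it was at 9.13, 9.08, 8.95, 8.85 and 8.79 log2 in the APOE4 mice, against 9.10, 8.92, 8.68, 9.28 and 9.21 log2 in the APOE3 mice. The difference was -0.08 log2 (SE 0.13, 95% interval -0.36 to 0.20, adjusted p = 0.896 in limma). By 1450702_at, close to background, Hfe ranged from 3.97 to 4.52 log2 in APOE4 and from 3.98 to 4.30 log2 in APOE3, a difference of 0.03 log2 (SE 0.12, adjusted p = 0.963 in limma) that was -0.03 with arrays centred.

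Bmp6, the endothelial ligand that raises hepcidin when liver iron rises, was under a mean of 4 and not tested. It was at 2.75, 3.19, 3.14, 2.85 and 3.87 log2 in the APOE4 mice, against 2.52, 2.85, 3.03, 2.81 and 3.40 log2 in the APOE3 mice. All 10 values were under 4, where differences have no sure scale, and replicate 5 was highest in each genotype. Sinusoidal endothelial markers were measured on the same arrays, with 12 of 12 tested and a mean of 6.94 to 7.32 log2 in APOE4 and 6.90 to 7.25 log2 in APOE3. A change of Bmp6 was therefore not detectable by its probe set.

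Among the uptake genes, Tfrc varied most between animals of the same genotype. Tfrc encodes transferrin receptor 1, which takes up iron bound to transferrin and whose mRNA is stabilised when the cell is short of iron. By 1452661_at it was at 9.31, 7.20, 7.77, 7.28 and 8.06 log2 in the APOE4 mice, against 7.93, 8.44, 7.60, 7.86 and 8.23 log2 in the APOE3 mice. APOE4 replicate 1 lay 0.87 log2 (1.83-fold) above every other animal, while APOE4 replicates 2 and 4 were the lowest. The means were 7.92 ± 0.85 log2 in APOE4 and 8.01 ± 0.33 log2 in APOE3 (SD, n = 5 each), a difference of -0.09 log2 (SE 0.35, 95% interval -0.87 to 0.69, adjusted p = 0.962 in limma). Leaving out APOE4 replicate 1 gave -0.44 log2 and leaving out APOE4 replicate 2 gave 0.09 log2, so single mice set both size and sign.

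APOE4 replicate 1 also had the highest Saa1 value, an acute phase transcript, at 12.23 log2, against 10.13 to 10.91 log2 in the other APOE4 mice and 10.33 to 11.60 log2 in the APOE3 mice. Saa2 was also highest in this mouse, at 11.32 log2. Its probe set has the suffix x and that of Saa1 the suffix s, so these are no sure separate readings. In it Crp (12.05 log2), Fga (13.33), Fgb (13.99) and Hp (13.41) lay inside the range of the other APOE4 mice. Socs3 (7.83 log2) and Lcn2 (10.11) lay above the other APOE4 mice, which were at 6.31 to 7.06 and 8.22 to 8.96. The Socs3 probe set has the suffix x. The APOE3 mice reached 7.66 log2 for Socs3 and 10.31 log2 for Lcn2, so Socs3 but not Lcn2 was highest in this mouse. The part of an acute phase response in the high Tfrc value of this mouse was not tested. Erythroid cells, which also carry this receptor, were read by 2 tested markers of 10, of which 0 passed. The other 5 Tfrc probe sets were at background. Of these, 1422966_a_at and 1422967_a_at ranged from 1.46 to 2.62 log2 in APOE4 and from 1.43 to 2.91 log2 in APOE3. The 3 control probe sets for Tfrc stayed between 1.52 and 2.32 log2 in APOE4 and between 1.62 and 2.43 log2 in APOE3. Tfrc therefore rests on 1 of its 6 probe sets, and the places of the probes in the transcript were not analysed here.

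Slc11a2, which encodes the divalent metal transporter DMT1, was near background in all livers. By 1426441_at, its 1 tested probe set of 4, it was at 4.53, 4.45, 4.35, 4.54 and 5.26 log2 in the APOE4 mice, against 4.20, 4.51, 4.84, 4.80 and 4.27 log2 in the APOE3 mice. APOE4 replicate 5 stood above the rest and the groups overlapped, with a difference of 0.10 log2 (SE 0.19, adjusted p = 0.917 in limma) and -0.06 without that mouse. The same mouse was highest by the other 3 probe sets of Slc11a2. These ranged from 2.75 to 4.34 log2 in APOE4 and from 2.89 to 4.20 log2 in APOE3. In the fit without a filter 1452078_a_at differed by 0.24 log2 with an unadjusted p of 0.045, on values of which 9 of 10 were under 4.

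**Figure D2:**
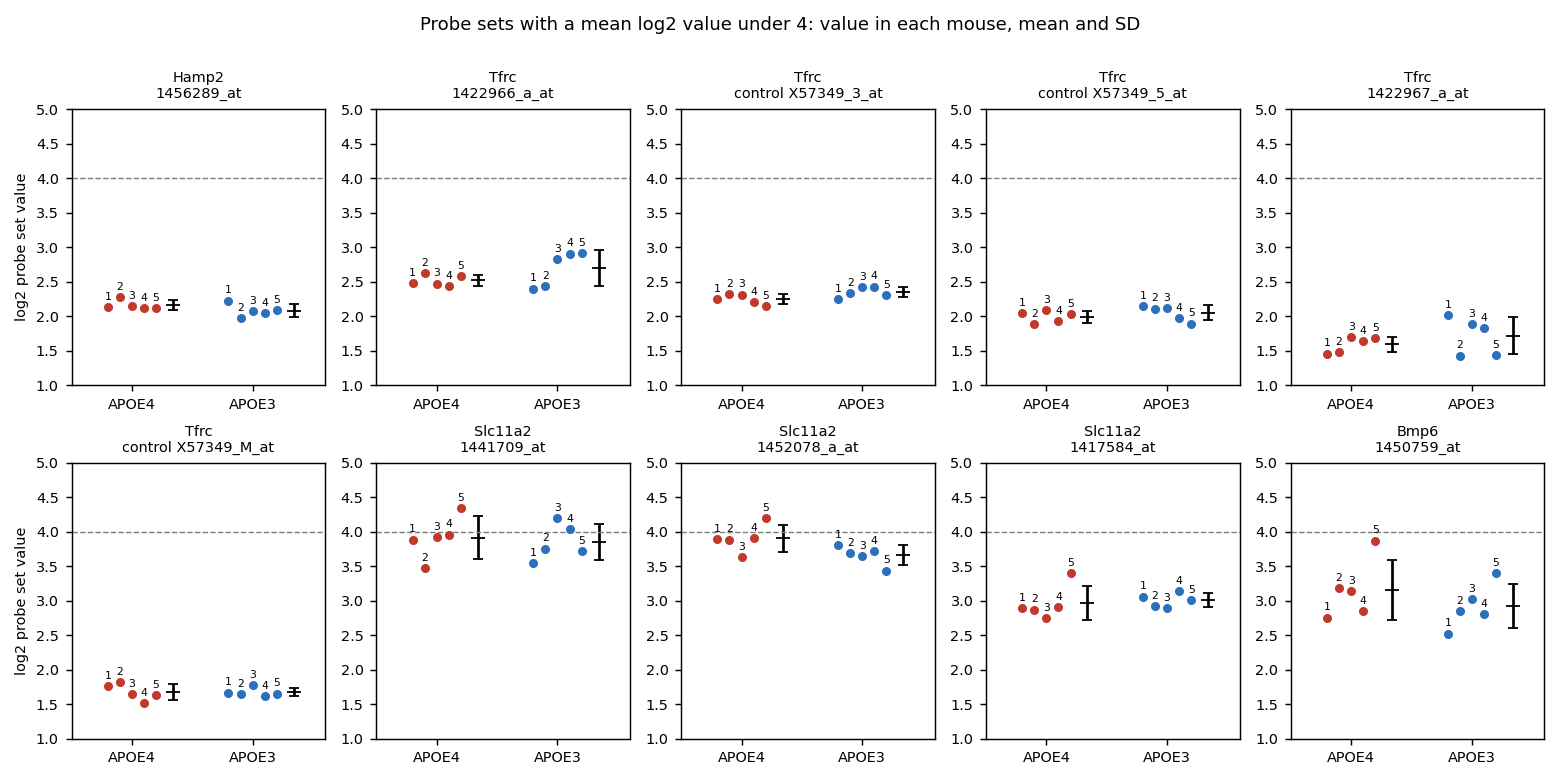
Log2 value in every mouse for the 10 probe sets of iron genes with a mean under 4 (dashed line), APOE4 mice in red on the left and APOE3 mice in blue on the right, with replicate numbers and the mean with its SD. The Hamp2, Tfrc and Bmp6 panels stay under 4 in all 10 mice, and APOE4 replicate 5 is highest in the 3 Slc11a2 panels and in the Bmp6 panel.

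The storage gene Fth1, which encodes the ferritin heavy chain with its ferroxidase activity, varied little between animals. By 1448771_a_at it was at 13.91, 13.84, 13.73, 13.68 and 13.69 log2 in the APOE4 mice, against 14.02, 13.82, 13.85, 13.73 and 13.81 log2 in the APOE3 mice. The groups overlapped, and the 95% interval of the difference ran from -0.27 to 0.12 log2, which as a ratio of APOE4 over APOE3 is 0.827 to 1.08 (difference -0.08, SE 0.09, adjusted p = 0.846 in limma). By 1427021_s_at Fth1 ranged from 12.24 to 12.45 log2 in APOE4 and from 12.20 to 12.47 log2 in APOE3, a difference of 0.01 log2 (SE 0.09, adjusted p = 0.983 in limma). The suffix s marks oligonucleotides shared by several transcripts. The sign of this last difference turned with arrays centred (-0.05), and both intervals hold 0.

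The other genes of iron handling were described by lists, each gene by its probe set with the highest mean. The lists were chosen with earlier results of these data known, so their counts are a description. Across 7 lists 0 genes passed in either direction, against 0.0815% of all tested probe sets. Of the BMP and SMAD genes that control hepcidin, 17 of 20 were tested, 9 above 0 and 8 below, with a median difference of 0.00 log2. Smad5, one of the SMADs that carry the BMP signal, ranged from 6.12 to 6.35 log2 in APOE4 and from 5.81 to 6.12 log2 in APOE3, a difference of 0.26 log2 (SE 0.09, adjusted p = 0.580 in limma). The groups touched at their edges and did not separate.

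No single BMP target named here passed the test. Id1, an inhibitor of bHLH factors that BMP signals induce, was at 7.16, 8.34, 7.28, 7.17 and 6.92 log2 in the APOE4 mice, against 7.85, 7.71, 6.59, 6.91 and 6.83 log2 in the APOE3 mice. APOE4 replicate 2 was the highest of all, and the difference was 0.20 log2 (SE 0.31, adjusted p = 0.893 in limma), or -0.04 without that mouse. Id3 was at 0.46 log2 (SE 0.24), Atoh8, a factor that raises hepcidin transcription, at 0.07 (SE 0.31), and the inhibitory Smad7 at -0.16 (SE 0.24). Hjv, the BMP co-receptor hemojuvelin, was at -0.12 (SE 0.09) and Tmprss6, the protease that cleaves it, at 0.02 (SE 0.09). Adjusted p-values in limma for these 5 genes lay between 0.656 and 0.974. Atoh8 was close to background, from 3.43 to 5.36 log2 in APOE4 and from 3.79 to 4.68 log2 in APOE3. The Smad7 probe set has the suffix x, so it is no sure reading of Smad7 alone. The BMP targets, Hjv and Tmprss6 thus gave differences of mixed sign, none of which passed.

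For the interleukin 6 and STAT3 input, 13 of 13 genes were tested, 8 above 0 and 5 below, with a median of 0.06 log2. The kinase genes with the smallest p were Jak2 at -0.21 log2 (SE 0.11, adjusted p = 0.670 in limma) and Jak1 at 0.13 log2 (SE 0.11, adjusted p = 0.764). Iron export, reduction and transport had 10 of 15 genes tested, 5 above and 5 below 0, with a median of 0.00 log2. Slc40a1, which encodes ferroportin, the protein that hepcidin acts on, ranged from 10.78 to 11.39 log2 in APOE4 and from 11.04 to 11.35 log2 in APOE3 (difference -0.02, SE 0.12). In this list Cp, the plasma ferroxidase ceruloplasmin, was at -0.06 log2 (SE 0.08), Slc39a14, an importer of iron not bound to transferrin, at 0.08 (SE 0.19), the ferrireductase gene Steap4 at -0.17 (SE 0.19) and the mitochondrial importer gene Slc25a37 at 0.12 (SE 0.12). These 5 genes had adjusted p-values between 0.823 and 0.981 in limma.

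Of the cellular iron regulators, 10 of 13 were tested, 5 above and 5 below 0, with a median of -0.03 log2. Aco1, which encodes iron regulatory protein 1, was at -0.15 log2 (SE 0.09, adjusted p = 0.692 in limma). Its probe set has the suffix x, so it is no sure reading of Aco1 alone. Ireb2, which encodes iron regulatory protein 2, was at -0.07 log2 (SE 0.16, adjusted p = 0.924 in limma). Ncoa4, the receptor that takes ferritin to the lysosome, was at -0.12 log2 (SE 0.10) and Epas1, which encodes the hypoxia factor HIF2 alpha, at 0.19 log2 (SE 0.12). The transcripts of these regulators of ferritin and of the transferrin receptor therefore showed no difference that passed. The activity of the proteins was not measured.

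Heme synthesis had 7 of 8 genes tested, 3 above and 4 below 0, with a median of -0.00 log2, and Alad (0.17, SE 0.15) and Ppox (0.12, SE 0.13) had the smallest p. Iron-sulfur cluster assembly had 14 of 18 genes tested, 11 above and 3 below 0, with a median of 0.10 log2. Lyrm4, a partner of the cysteine desulfurase, was at 0.35 log2 (SE 0.19) there and Ciapin1 at 0.19 (SE 0.14). In all tested probe sets 60.9% were above 0 and the median was 0.05 log2. For 4 of these genes adjusted p-values lay between 0.675 and 0.843 in limma.

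The largest differences among the named genes, those of Hmox1 and Cd163 in heme breakdown and scavenging, were moved by 1 APOE3 mouse. In that list 12 of 12 genes were tested, 4 above and 8 below 0, with a median of -0.02 log2. Hmox1, heme oxygenase 1, which releases iron from heme, ranged from 5.12 to 6.18 log2 in APOE4, against 5.60, 6.64, 6.51, 9.15 and 5.90 log2 in the APOE3 mice. The difference was -1.16 log2 (SE 0.56, adjusted p = 0.637 in limma), or -0.57 without APOE3 replicate 4. Cd163, the macrophage receptor for haemoglobin bound to haptoglobin, was at 8.73, 8.64, 9.22, 9.36 and 9.01 log2 in the APOE4 mice, against 8.31, 8.22, 8.68, 6.37 and 9.02 log2 in the APOE3 mice. Its difference was 0.87 log2 (SE 0.41, adjusted p = 0.634 in limma), or 0.44 without APOE3 replicate 4. The same animal was thus highest for Hmox1 and lowest for Cd163.

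Kupffer cell markers, with 13 of 13 tested, averaged 8.10 to 8.82 log2 in APOE4 mice and 8.25 to 9.63 log2 in APOE3 mice, and the top value was that of APOE3 replicate 4. Of the 13, which include Cd163, 2 were above 0 and 11 below, 0 passed, and the median was -0.21 log2. The part of macrophages in the Hmox1 and Cd163 values was not tested. Hmox2, the constitutive heme oxygenase, ranged from 9.34 to 9.70 log2 in APOE4 and from 9.03 to 9.42 log2 in APOE3 (difference 0.25, SE 0.11, adjusted p = 0.600 in limma). The plasma scavengers Hp and Hpx, which bind haemoglobin and heme, were at -0.01 log2 (SE 0.11) and -0.03 log2 (SE 0.09).

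**Figure D3:**
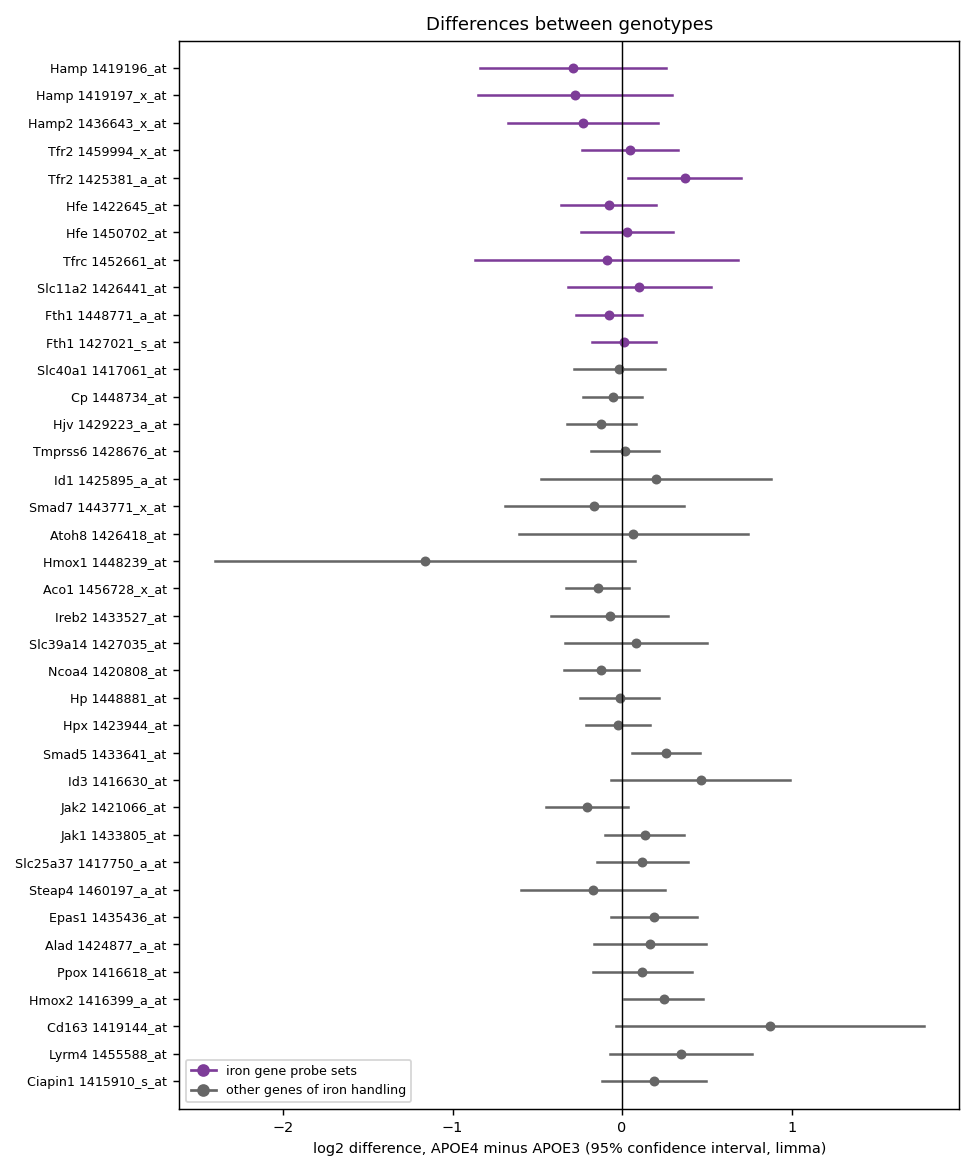
Log2 difference, APOE4 minus APOE3, with its 95% confidence interval from limma, for the 11 tested iron gene probe sets (purple) and 27 other genes of iron handling (grey). Intervals are not adjusted for the number of probe sets. Those of Tfr2 by 1425381_a_at, Smad5 and Hmox2 lie above 0, none of these 3 passed after adjustment, and the widest are those of Hmox1 and Cd163.

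Across the 10 mice, Hamp was set against the other transcripts in 4 pairs that could be computed, with a permutation test of 100000 resamples, two-sided and adjusted over the 4 pairs. Hamp and Hamp2 by 1436643_x_at had a Pearson r of 0.85 (permutation p = 0.0248, adjusted p = 0.0992) and a Spearman rho of 0.47 (permutation p = 0.178, adjusted p = 0.356). Without the 2 mice farthest from the median of Hamp, APOE4 replicates 4 and 1, r was 0.30 (permutation p = 0.467), so the relation rests on those animals and shares the uncertainty about which gene the probe set reads. Hamp and Id1 had an r of 0.04 (permutation p = 0.928, adjusted p = 0.928) and a rho of -0.18 (permutation p = 0.633, adjusted p = 0.633), with r at -0.26 without the same 2 mice. No relation of Hamp with Id1 was detectable in these 10 animals.

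Hamp and Saa1, whose probe set reads several serum amyloid A transcripts by its suffix, had an r of -0.09 (permutation p = 0.764, adjusted p = 0.928) and a rho of -0.49 (permutation p = 0.154, adjusted p = 0.356), with r at -0.21 without those 2 mice. Leaving out APOE4 replicate 4 alone moved this r to -0.68 (permutation p = 0.0517, not adjusted), so its size depends on that mouse. Hamp and Tfrc had an r of 0.27 (permutation p = 0.370, adjusted p = 0.740) and a rho of 0.33 (permutation p = 0.351, adjusted p = 0.468), with r at 0.51 without them, -0.42 without APOE4 replicate 4 alone and 0.56 without APOE4 replicate 1 alone. After adjustment 0 of the 4 pairs passed over all 10 mice. The pairs with Bmp6 were not computed, since its probe set was at background. No batch was given in the labels, so no value within batches could be made.

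**Figure D4:**
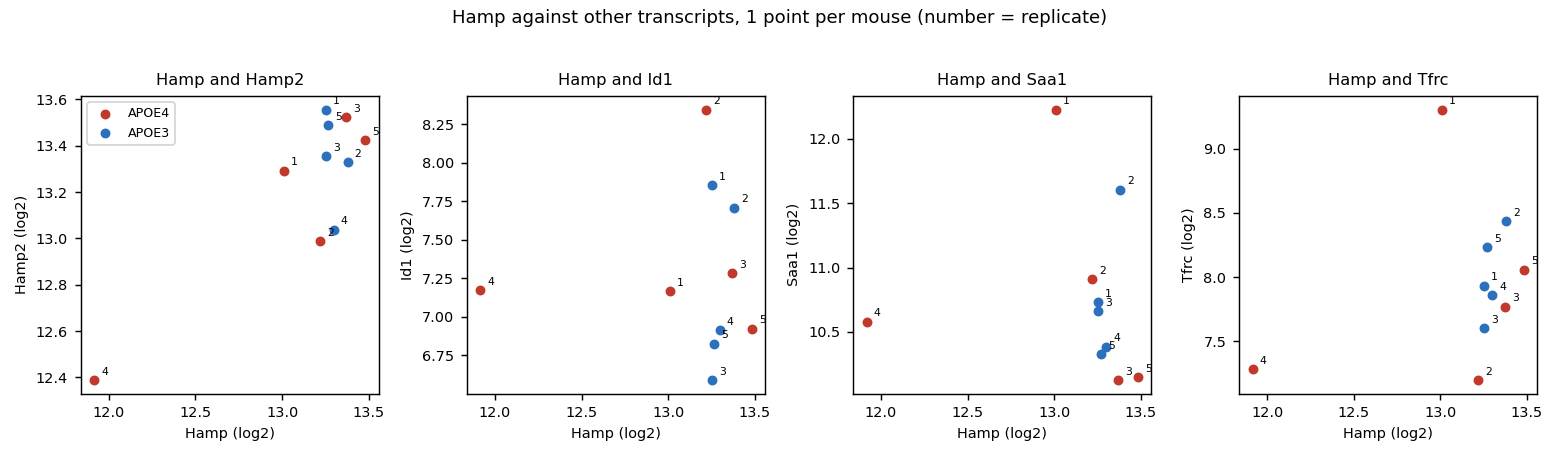
Log2 value of Hamp (1419196_at) against Hamp2 (1436643_x_at), Id1, Saa1 and Tfrc, with 1 point per mouse, APOE4 in red and APOE3 in blue, numbered by replicate. APOE4 replicate 4 lies alone at 11.92 log2 of Hamp in every panel, while the other 9 mice lie between 13.01 and 13.48.

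The transcripts most like Hamp across the 10 mice, by the highest Pearson r among the tested genes, were Gtf3c2, a subunit of transcription factor IIIC (r = 0.93), Faf1, which encodes a FAS-associated protein (r = 0.91), and Nfix, a transcription factor gene (r = 0.90). They were picked as the top of all tested genes. Without APOE4 replicate 4 these r were 0.65, 0.64 and 0.63. Those most like Tfrc were Dnajb9, a co-chaperone gene of the endoplasmic reticulum (r = 0.96), Josd2, a deubiquitinase gene (r = 0.91), and Gfpt1, which encodes the first enzyme of hexosamine synthesis (r = 0.90). Without APOE4 replicate 1 these r were 0.91, 0.77 and 0.77. Dnajb9 ranged from 9.75 to 10.6 log2 in APOE4 and from 9.90 to 10.2 log2 in APOE3 and was highest in APOE4 replicate 1, as Tfrc was.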

How the data were processed

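Liver RNA of 10 mice was read on 1-colour arrays, 1 per animal, labelled from 2 ug of RNA. The deposited values are log2 intensities from GCRMA (version 2.12.1, run under R 2.7.1), tools named by the submitters' processing notes. GCRMA corrects background, normalizes between arrays and holds undetected transcripts near a floor. A genome build is not given in the sources used here, and 0 columns belonged to no sample.

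From the 45101 probe sets, 64 controls were left out, and the 14732 that averaged 4 or more were tested with limma 3.58.1 in R 4.3.3 (lmFit, eBayes, two-sided, Benjamini-Hochberg, threshold 0.05). Animals were separate, 5 per genotype, and their number limits the precision. The fit was tested on simulated data with 50 changed probe sets per size. It recovered 36% of changes of 0.5 log2, 82% of 1 log2 and 100% of 2 log2, so small changes could be missed.

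Members and lists were chosen with earlier results of these data known. The text names every member probe set, 14 preset genes, the 2 genes with the smallest p per list where none passed, and the 3 genes most like Hamp or Tfrc. Saa1 in APOE4 replicate 1 was singled out after its values were seen. Saa2, Crp, Fga, Fgb, Socs3 and Lcn2 of that mouse were named beside it. Alternatives were other filters, fit settings, scalings, 1 probe set per gene, a replicate block and leaving out each animal. Leaving out 1 animal in the correlations and in the likeness to Hamp or Tfrc was added after seeing the data. Sequences are from RefSeq (GRCm38.p6), and figures were drawn with matplotlib 3.10.9.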

Additional observations from a re-analysis of the deposited data

Results flagged for a closer look

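In 6 of 76 groups of 5 mice, 1 animal stood far from the other 4 of its genotype by Dixon's gap test at 0.71, and chance flags about 1 in 20 groups. Hamp by 1419197_x_at was at 13.01 log2 in APOE3 replicate 2, against 12.89 to 12.91 in the other APOE3 mice. Slc11a2 by 1426441_at was at 5.26 log2 in APOE4 replicate 5, against 4.35 to 4.54 in the other APOE4 mice. Id1 was at 8.34 log2 in APOE4 replicate 2, against 6.92 to 7.28. Jak2 was at 7.65 log2 in APOE3 replicate 2, against 7.35 to 7.43. Slc25a37 was at 7.75 log2 in APOE3 replicate 3, against 8.05 to 8.09. Epas1 was at 11.82 log2 in APOE4 replicate 5, against 11.41 to 11.49. The low hepcidin value of APOE4 replicate 4 was not among them, with a gap of 0.698 of the range of its group by 1419196_at.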

How the results depend on the processing

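Over all tested probe sets, 12 passed, against 5 with the filter at a mean of 6, 7 with 1 probe set per gene, 8 to 14 without 1 animal in turn, and 11 to 15 under the other settings. The 11 iron gene probe sets gave 203 alternative values, of which 0 passed, 18 changed sign and 185 kept it (smallest adjusted p 0.493 in limma). The 27 other genes gave 510, of which 0 passed and 20 changed sign. With arrays centred on their medians, Tfr2 by 1459994_x_at was at -0.0075, Fth1 by 1427021_s_at at -0.046, Hfe by 1450702_at at -0.026 and Tmprss6 at -0.040 log2. With array weights, Fth1 was at -0.0081 and Slc40a1 at 0.044, and with renewed quantile normalization Fth1 was at -0.028 and Tmprss6 at -0.015. Leaving out each animal in turn gave -0.42 to 0.00081 for Hamp by 1419197_x_at, -0.44 to 0.091 for Tfrc, -0.043 to 0.12 for Tfr2 by 1459994_x_at, -0.027 to 0.043 for Fth1 by 1427021_s_at, -0.058 to 0.18 for Slc11a2 and -0.044 to 0.092 for Hfe by 1450702_at. It gave -0.069 to 0.083 for Slc40a1, -0.012 to 0.067 for Tmprss6, -0.042 to 0.37 for Id1, -0.21 to 0.27 for Atoh8, -0.16 to 0.039 for Ireb2, -0.023 to 0.16 for Slc39a14, -0.084 to 0.023 for Hp and -0.063 to 0.0078 for Hpx. The causes were not tested. Without the 2 mice farthest from the median of Hamp, r was 0.304 with Hamp2 and -0.264 with Id1. Leaving out 1 mouse gave r of 0.249 to 0.895 for Hamp with Hamp2, -0.102 to 0.105 with Id1, -0.677 to -0.0033 with Saa1 and -0.424 to 0.561 with Tfrc. Pairing of same-numbered mice of the 2 genotypes was described without a test. Correlations of their deviations were over 0.1 in 3 of 5 pairs (-0.079 to 0.414). Of the 5 APOE4 arrays, 2 were closest to their own number, and the fit with the replicate block gave 11 calls. Signals under 4 log2 and the number of arrays limit what could be detected.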
